A study of Mus musculus with 11 samples.

Results

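The genes described here are 39 genes of the ATF4 amino acid response and serine synthesis: the transcription factors of the response, the enzymes that make serine, glycine, one-carbon units, asparagine, proline and cysteine, the amino acid transporters, and the effectors that act on stress and translation. They are listed by name, and no cut on a measured value sets the membership. The list was made with earlier results of these data known, so the shares of all genes given below are for description. Of the 39, 38 had a probe set annotated to a single gene symbol, and these 38 were among the 14795 genes tested. Pycr1 is not analysed here. Levels were measured on 11 Affymetrix mouse arrays hybridised with RNA of CD8+ T cells grown in culture, and the values printed are normalised log2 signals, which compare arrays for one gene and not one gene with another.

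The donors of all cells were Pmel-1 transgenic mice, in which CD8+ T cells carry a receptor for gp100, a melanocyte protein. The cells started either as naive cells (CD44-) or as central memory cells (CD44+), were activated on plate-bound anti-CD3 with anti-CD28, were restimulated after a week with feeder cells from allogeneic mice carrying the human gp100 peptide, and were kept in medium with 10 cetus units of IL2. After 2 weeks each culture of effector cells was either left unstimulated or stimulated through CD3 and CD28 for a final 4 hours. The 4 groups are thus memory-derived unstimulated cells (3 arrays), memory-derived stimulated cells (3 arrays), naive-derived unstimulated cells (2 arrays analysed here) and naive-derived stimulated cells (3 arrays). Arrays are numbered by the experiment in each sample's description, which is also its replicate number, and the series' design text calls the experiments independent; whether animals were pooled is not given in the sources used here. The cultures shared the transgene, the feeders, the peptide and the IL2, so every contrast below is between effector cells and none is with a resting T cell.

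All 7 CD8 T cell markers (Cd8a, Cd8b1, Cd3e, Cd3d, Cd3g, Thy1 and Gzmb) were above the filter level of 1.54 on all 11 arrays, with a mean level over the list between 9.09 and 9.76. This matches the label and does not show how pure the cultures were. The marker lists of other cells had lower means, and some of their genes were above the filter. Of 3 CD4 and regulatory T cell genes, Cd4 was below the filter on all 11 arrays, Foxp3 was above it on 4 (at most 1.74) and Cd40lg on 8 (at most 2.94). Their mean was 1.23 to 1.49 in memory-derived unstimulated, 1.30 to 1.54 in memory-derived stimulated, 1.60 to 1.69 in naive-derived unstimulated and 1.41 to 1.75 in naive-derived stimulated cells. Of 2 erythroid genes, Alas2 was below the filter on all 11 arrays and Hba-a1 was above it on 3 (at most 1.85), with a list mean between 0.817 and 1.63 over the 11 arrays. Of 2 NK cell genes, Ncr1 was between 1.06 and 1.61, while Klrd1, which activated CD8 T cells also express, was between 7.61 and 10.56. The NK list mean was highest in memory-derived unstimulated cells, at 5.51 to 6.04, against 4.79 to 5.20 in memory-derived stimulated, 4.87 to 5.28 in naive-derived unstimulated and 4.33 to 5.00 in naive-derived stimulated cells. The mean over 5 B cell genes was 1.62 to 2.08 in memory-derived unstimulated, 1.55 to 1.61 in memory-derived stimulated, 2.24 to 2.28 in naive-derived unstimulated and 1.93 to 2.19 in naive-derived stimulated cells. It was thus highest in naive-derived unstimulated cells. On every array 2 or 3 of the 5 were above the filter, while Cd79a and Ms4a1 were below it on all 11 arrays. The mean over 7 macrophage, monocyte and dendritic cell genes (Lyz2, Csf1r, Cd68, Adgre1, Itgam, Itgax and Cd14) was 2.92 to 3.22, 2.97 to 3.00, 2.47 to 2.54 and 2.30 to 2.70 in the same order. On every array 5 to 7 of them were above the filter. One sign of RNA quality differed with the groups: the 3′ minus 5′ difference of the actin control probe sets was 0.875 to 1.17 in memory-derived unstimulated, 1.43 to 1.73 in memory-derived stimulated, 1.54 to 1.59 in naive-derived unstimulated and 1.93 to 2.60 in naive-derived stimulated cells. It was lowest in the group where most of the genes below were also lowest, and the part of RNA quality or of other cells in the results was not tested.

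ATF4 is a transcription factor whose translation rises when the initiation factor eIF2 is phosphorylated, for example by GCN2 (Eif2ak4), the kinase that senses uncharged tRNA when amino acids run short. Together with C/EBP family partners it binds composite C/EBP-ATF response elements in genes for amino acid synthesis, import and tRNA charging, and it also drives genes such as Ppp1r15a and Trib3 that limit the response. In activated T cells, growth and division raise the demand for amino acids, serine and one-carbon units, and mTORC1 signalling is known to raise ATF4 activity as well.

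The promoters are shown because several members with large differences share a sequence motif. The genes were listed as members of the ATF4 response, so a larger share with its element than among all genes is not independent of the list. The motif TGATGNAA, the core of the C/EBP-ATF response element with N for any base, was searched on both strands in the window from 250 bases before to 50 bases after each start in RefSeq (GRCm38.p6), where 33 of the 38 genes had an entry. It was present in 9 of the 33 (27.3%): Asns, Atf3, Chac1, Got1, Nupr1, Slc1a4, Slc7a11, Trib3 and Vldlr. Of all 27025 mouse genes with a promoter of this length, 4.51% held it. The 7 genes of the 9 that rose on stimulation of memory-derived cells are printed below, 5′ to 3′ on the gene's strand, each with its flanks and with capitals marking the match.
Asns, chr6:7693214-7693243, minus strand: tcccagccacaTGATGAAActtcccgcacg
Got1, chr19:43524689-43524718, minus strand: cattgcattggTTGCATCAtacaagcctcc
Slc1a4, chr11:20332699-20332728, minus strand: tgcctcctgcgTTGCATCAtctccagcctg
Slc7a11, chr3:50443642-50443690, minus strand: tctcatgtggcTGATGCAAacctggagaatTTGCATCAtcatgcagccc
Atf3, chr1:191183425-191183454, minus strand: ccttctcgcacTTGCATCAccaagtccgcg
Chac1, chr2:119351038-119351067, plus strand: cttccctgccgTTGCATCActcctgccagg
Trib3, chr2:152344028-152344057, minus strand: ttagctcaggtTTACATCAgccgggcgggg
Slc7a11 held a pair of matches in opposite orientation, TGATGCAA and TTGCATCA, and 5 of the other 6 genes read TTGCATCA or TTACATCA on the gene's strand. Nupr1 and Vldlr also held the motif and did not pass in any of the 6 comparisons. The E-box CACGTG, searched the same way, was in 3 of the 33 (Aldh18a1, Cbs and Nupr1, 9.09%) and in 8.09% of all genes. A match describes the letters in this window and does not show binding.

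On stimulation of memory-derived cells, 33 of the 38 genes rose and none fell, by limma with Benjamini-Hochberg adjusted p below 0.05 over all genes tested. Over all 14795 genes, 31.6% passed, of which 14.3% rose and 17.3% fell as shares of all genes tested. The median difference over the 38 was 1.27 on the log2 scale (range -0.48 to 3.05), against 0.0025 over all genes. All memory-derived stimulated arrays lay above all memory-derived unstimulated arrays in 34 of the 38, against 21.9% of all genes, and 37 were higher in each of the 3 experiments, against 29.7% of all genes. The medians within experiments 1, 2 and 3 were 1.20, 1.26 and 1.55. In bulk RNA, fewer cells that express a gene and less RNA per cell cannot be told apart.

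Without the final stimulation, naive-derived cells already had more of most of these transcripts than memory-derived cells: 28 of the 38 genes were higher and none was lower, against 25.8% of all genes passing, 10.9% higher and 14.9% lower. The median difference was 0.96, against -0.0090 over all genes, with a range from -0.26 to 2.31. In 35 of the 38 both naive-derived arrays lay above all 3 memory-derived arrays, against 24.4% of all genes. The medians within experiments 1 and 2, where both groups have an array, were 1.05 and 0.80. Without naive-derived unstimulated array 1, which leaves 1 array in that group, Psph, Slc7a11, Slc7a5, Slc7a1, Slc1a5, Slc38a1, Atf4, Cebpg, Eif2ak4 and Stc2 did not pass. Fewer of all genes passed as well without either naive-derived unstimulated array, and whether the loss was particular to these genes was not tested. This comparison and the one above share the memory-derived unstimulated arrays. Their group mean was the lowest of the 4 groups for 36 of the 38 genes (94.7%), and for 36.0% of all genes. In 29 of the 38 the naive-derived unstimulated mean lay above it and below both stimulated means, as it did for 15.9% of all genes.

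**Figure D1:**
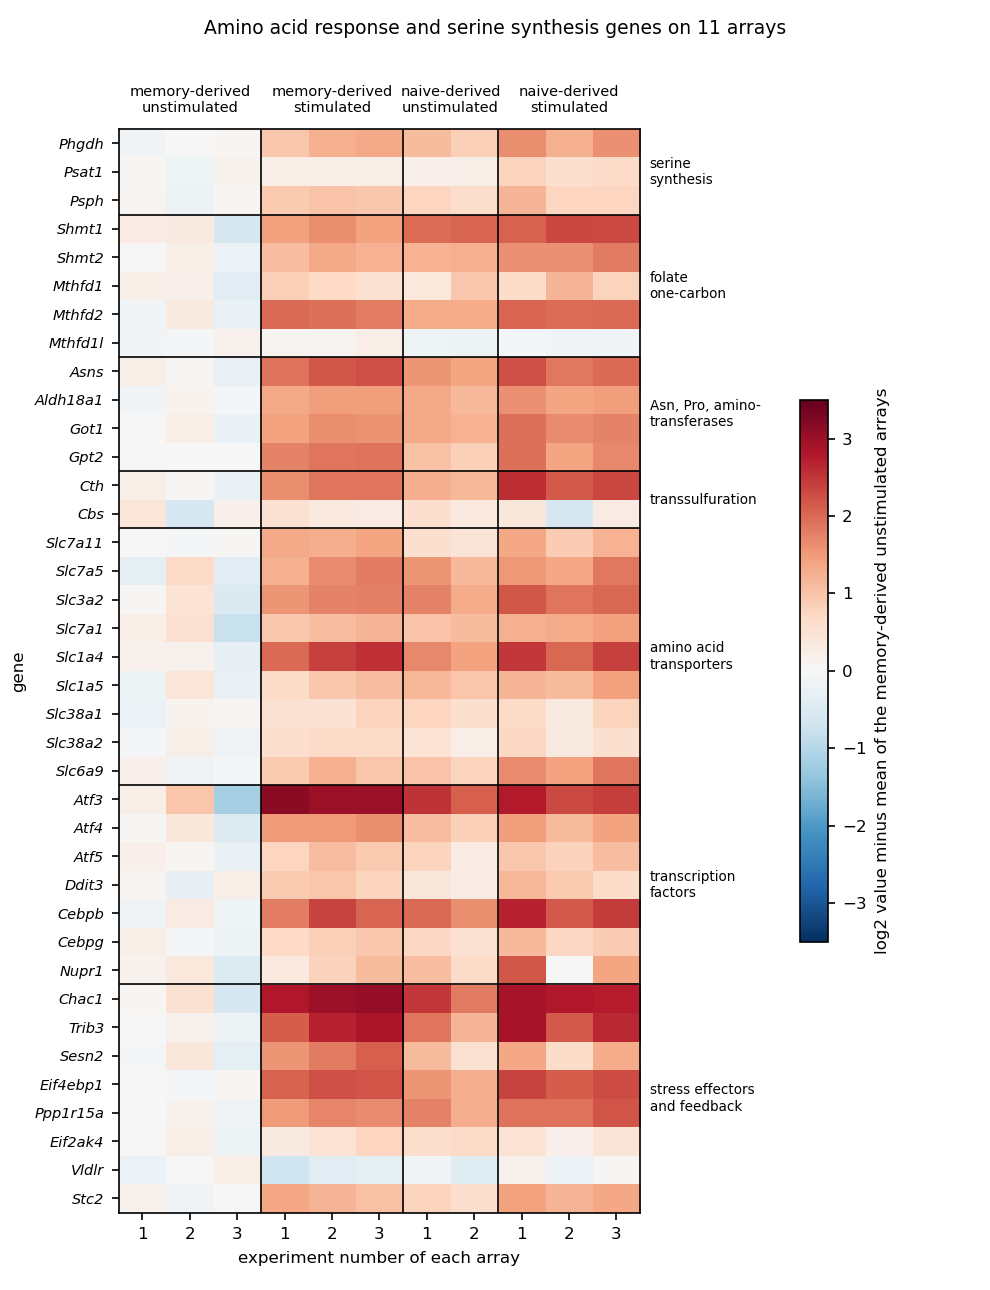
Difference of each array from the memory-derived unstimulated mean (log2, colour) for the 38 genes ordered by role, with arrays in columns by group. The median of the 38 lay between -0.18 and 0.14 on the memory-derived unstimulated arrays, 1.28 and 1.35 on the memory-derived stimulated arrays, 0.89 and 1.09 on the naive-derived unstimulated arrays and 1.28 and 1.56 on the naive-derived stimulated arrays.

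Among the 7 transcription factors, 6 rose on stimulation of memory-derived cells and 4 were higher in naive-derived than in memory-derived unstimulated cells. Atf4, the factor at the head of the response, measured 7.70, 8.04 and 7.21 (mean 7.65 ± 0.42, SD, n = 3) in memory-derived unstimulated cells, 9.13, 9.14 and 9.27 in memory-derived stimulated cells, 8.74 and 8.47 in naive-derived unstimulated cells and 9.10, 8.75 and 9.07 in naive-derived stimulated cells. The 3 memory-derived unstimulated arrays were the 3 lowest of the 11, and the naive-derived unstimulated arrays did not reach any memory-derived stimulated array. Atf4 rose by 1.53 (SE 0.20, 2.88-fold, adjusted p = 0.000387) on stimulation of memory-derived cells and was 0.96 higher (SE 0.22, 1.94-fold, adjusted p = 0.00971) in naive-derived unstimulated cells. The second difference did not pass without naive-derived unstimulated array 1 (adjusted p = 0.0863).

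Atf3, an ATF4 target that represses or activates other stress genes, spread widely in memory-derived unstimulated cells, at 4.15, 4.91 and 2.78 (mean 3.95 ± 1.08). It measured 7.09, 6.94 and 6.96 in memory-derived stimulated cells, 6.48 and 6.04 in naive-derived unstimulated cells and 6.73, 6.25 and 6.37 in naive-derived stimulated cells. Every other array was above the 3 memory-derived unstimulated arrays, and the naive-derived groups overlapped each other. The rise on stimulation of memory-derived cells was 3.05 (SE 0.41, 8.29-fold, adjusted p = 0.000476), the largest of the 38, and the naive-derived excess without stimulation was 2.31 (SE 0.46, 4.97-fold, adjusted p = 0.0046). Without the low array of experiment 3 these were 2.47 and 1.73.

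Cebpb encodes a C/EBP partner that binds beside ATF4. The gene measured 3.19, 3.60 and 3.16 in memory-derived unstimulated cells, 5.09, 5.68 and 5.36 in memory-derived stimulated cells, 5.30 and 4.95 in naive-derived unstimulated cells and 6.01, 5.45 and 5.77 in naive-derived stimulated cells. No array of another group reached the memory-derived unstimulated range. Cebpb rose by 2.06 (SE 0.20, 4.18-fold, adjusted p = 0.000105) on stimulation of memory-derived cells and was 1.81 higher (SE 0.23, 3.50-fold, adjusted p = 0.000496) in naive-derived unstimulated cells. Cebpg, another C/EBP partner, rose by 0.83 (adjusted p = 0.00223) and was 0.64 higher (adjusted p = 0.018) in the same comparisons. Its 2 other probe sets differed from each other. Their means in memory-derived unstimulated, memory-derived stimulated and naive-derived unstimulated cells were 3.79, 4.61 and 4.15 for one. The dimmer one went the other way, at 1.77, 1.49 and 1.58. Atf5, a relative of ATF4 with a similar translational control, rose by 0.92 (adjusted p = 0.00233) on stimulation of memory-derived cells, while its 0.52 excess in naive-derived unstimulated cells had an adjusted p of 0.0663. Ddit3, which encodes the stress factor CHOP, rose by 0.89 (adjusted p = 0.00257) and was 0.33 higher without passing (adjusted p = 0.226). A second, dimmer probe set of Ddit3 did not rise, with group means of 1.98 before and 1.90 after stimulation of memory-derived cells, and the call did not hold on the mean of the probe sets (adjusted p = 0.0997). Nupr1, a small stress-induced chromatin protein, was dim and uneven, between 0.72 and 3.38 over the 11 arrays, and passed in no comparison.

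The 3 enzymes that make serine from 3-phosphoglycerate gave unequal values. Phgdh, the first of them, measured 7.20, 7.32 and 7.38 in memory-derived unstimulated cells, 8.25, 8.56 and 8.64 in memory-derived stimulated cells, 8.41 and 8.12 in naive-derived unstimulated cells and 8.94, 8.55 and 8.90 in naive-derived stimulated cells. All 8 other arrays lay above the memory-derived unstimulated range. Phgdh rose by 1.18 (SE 0.15, 2.27-fold, adjusted p = 0.000416) on stimulation of memory-derived cells and was 0.97 higher (SE 0.17, 1.95-fold, adjusted p = 0.0028) in naive-derived unstimulated cells. Psph, the phosphatase of the last step, rose by 0.95 (SE 0.15, adjusted p = 0.000897) and was 0.69 higher (SE 0.16, adjusted p = 0.0107). Psat1, the aminotransferase between them, did not pass: its difference on stimulation of memory-derived cells was 0.23 (adjusted p = 0.167), with levels from 6.57 to 6.84 before and 6.95 to 6.96 after. A second probe set of Psat1 had group means of 6.20 and 6.88 in these cells, and on the mean of the probe sets the gene did pass (adjusted p = 0.0059).

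Serine passes into the folate cycle through serine hydroxymethyltransferases, and 4 of the 5 folate one-carbon genes rose on stimulation of memory-derived cells while 3 were higher in naive-derived unstimulated cells. Mthfd2, the mitochondrial enzyme that oxidises methylene-tetrahydrofolate, measured 5.78, 6.20 and 5.65 in memory-derived unstimulated cells, 7.85, 7.81 and 7.67 in memory-derived stimulated cells, 7.17 and 7.18 in naive-derived unstimulated cells and 7.91, 7.84 and 7.86 in naive-derived stimulated cells. The groups formed 3 separate steps, with the stimulated groups overlapping at the top. Mthfd2 rose by 1.90 (SE 0.15, 3.74-fold, adjusted p = 3.42e-05) in memory-derived cells and was 1.30 higher (SE 0.16, 2.46-fold, adjusted p = 0.000505) in naive-derived unstimulated cells.

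Shmt1, the cytosolic serine hydroxymethyltransferase, measured 5.07, 5.09 and 4.21 in memory-derived unstimulated cells, 6.22, 6.42 and 6.20 in memory-derived stimulated cells, 6.74 and 6.84 in naive-derived unstimulated cells and 6.86, 7.14 and 7.10 in naive-derived stimulated cells. Here both naive-derived groups lay above both memory-derived groups, with no overlap. Shmt1 rose by 1.49 (SE 0.21, 2.81-fold, adjusted p = 0.000656) on stimulation of memory-derived cells and was 2.00 higher (SE 0.24, 4.00-fold, adjusted p = 0.000409) in naive-derived unstimulated cells, while the 0.75 excess in naive-derived stimulated cells had an adjusted p of 0.0874. Shmt2, the mitochondrial form, measured 6.62, 6.81 and 6.42 in memory-derived unstimulated cells, 7.71, 7.95 and 7.84 in memory-derived stimulated cells, 7.85 and 7.86 in naive-derived unstimulated cells and 8.22, 8.21 and 8.45 in naive-derived stimulated cells. Naive-derived unstimulated and memory-derived stimulated arrays overlapped for this gene. Its rise was 1.22 (SE 0.14, adjusted p = 0.000199) and its naive-derived excess 1.24 (SE 0.15, adjusted p = 0.000474). Mthfd1, the cytosolic trifunctional enzyme, rose by 0.69 (adjusted p = 0.0314), a call that ended without memory-derived stimulated array 1 or 2 or memory-derived unstimulated array 3. Mthfd1l, which releases formate from mitochondria, stayed between 5.46 and 5.88 on all 11 arrays and passed in no comparison.

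All 4 genes for asparagine, proline and aminotransferases rose on stimulation of memory-derived cells, and all 4 were higher in naive-derived unstimulated cells. Asns, asparagine synthetase and a classical ATF4 target with the motif next to its start, measured 6.66, 6.49 and 6.17 in memory-derived unstimulated cells, 8.35, 8.62 and 8.68 in memory-derived stimulated cells, 7.98 and 7.81 in naive-derived unstimulated cells and 8.71, 8.28 and 8.42 in naive-derived stimulated cells. The naive-derived unstimulated arrays lay between the memory-derived groups without touching either. Asns rose by 2.11 (SE 0.17, 4.32-fold, adjusted p = 3.83e-05) in memory-derived cells and was 1.45 higher (SE 0.19, 2.74-fold, adjusted p = 0.00055) in naive-derived unstimulated cells.

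Gpt2, the mitochondrial alanine aminotransferase, measured 1.98, 1.98 and 1.96 in memory-derived unstimulated cells, 3.71, 3.86 and 3.87 in memory-derived stimulated cells, 3.01 and 2.81 in naive-derived unstimulated cells and 3.91, 3.36 and 3.65 in naive-derived stimulated cells. It rose by 1.84 (SE 0.15, 3.58-fold, adjusted p = 3.83e-05) on stimulation of memory-derived cells and was 0.94 higher (SE 0.16, 1.92-fold, adjusted p = 0.00243) in naive-derived unstimulated cells. Its naive-derived unstimulated arrays stood clear of every other group. Got1, the cytosolic aspartate aminotransferase, measured 4.93, 5.14 and 4.69 in memory-derived unstimulated cells, 6.33, 6.53 and 6.49 in memory-derived stimulated cells, 6.26 and 6.14 in naive-derived unstimulated cells and 6.84, 6.58 and 6.64 in naive-derived stimulated cells. The 4 groups did not overlap, and their order ran from memory-derived unstimulated to naive-derived stimulated. Got1 rose by 1.53 (SE 0.14, 2.89-fold, adjusted p = 8.13e-05) and was 1.28 higher (SE 0.16, 2.43-fold, adjusted p = 0.000489). Aldh18a1, which makes the glutamate semialdehyde used for proline, measured 6.07, 6.28 and 6.11 in memory-derived unstimulated cells, 7.49, 7.61 and 7.61 in memory-derived stimulated cells, 7.48 and 7.29 in naive-derived unstimulated cells and 7.75, 7.53 and 7.62 in naive-derived stimulated cells. All arrays but those of memory-derived unstimulated cells lay within 7.29 to 7.75. Its rise was 1.42 (SE 0.12, 2.67-fold, adjusted p = 5.1e-05) and its naive-derived excess 1.23 (SE 0.13, 2.34-fold, adjusted p = 0.000292).

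Transsulfuration turns homocysteine into cysteine through Cbs and then Cth. Cth, cystathionine gamma-lyase, measured 1.47, 1.33 and 1.04 in memory-derived unstimulated cells, all under the filter level, then 2.90, 3.15 and 3.15 in memory-derived stimulated cells, 2.54 and 2.44 in naive-derived unstimulated cells and 3.88, 3.42 and 3.63 in naive-derived stimulated cells. The 4 groups did not overlap, with naive-derived stimulated cells highest. Taken against the filter level as a bound, Cth was at least 2.88-fold higher on stimulation of memory-derived cells (adjusted p = 5.81e-05) and at least 1.93-fold higher in naive-derived unstimulated cells (adjusted p = 0.00108). These adjusted p values belong to the measured log2 differences, 1.79 and 1.21, and not to the bounds. Cbs, cystathionine beta-synthase, was near the filter level, between 1.01 and 2.19, and passed in no comparison.

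All 9 transporter genes rose on stimulation of memory-derived cells, and 8 were higher in naive-derived unstimulated cells. Slc1a4, a carrier of alanine, serine and cysteine, measured 2.41, 2.41 and 1.97 in memory-derived unstimulated cells, 4.25, 4.65 and 4.82 in memory-derived stimulated cells, 3.94 and 3.68 in naive-derived unstimulated cells and 4.73, 4.27 and 4.66 in naive-derived stimulated cells. The memory-derived unstimulated arrays were far below all others, and the stimulated groups overlapped. Slc1a4 rose by 2.31 (SE 0.19, 4.96-fold, adjusted p = 4.6e-05) and was 1.55 higher (SE 0.22, 2.92-fold, adjusted p = 0.000854) in naive-derived unstimulated cells.

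Slc7a5 and Slc3a2 encode the chains of the large neutral amino acid transporter LAT1-CD98. Slc3a2 measured 7.11, 7.54 and 6.58 in memory-derived unstimulated cells, 8.61, 8.82 and 8.85 in memory-derived stimulated cells, 8.82 and 8.37 in naive-derived unstimulated cells and 9.26, 8.95 and 9.08 in naive-derived stimulated cells. Slc7a5 measured 5.51, 6.48 and 5.45 in memory-derived unstimulated cells, 7.06, 7.46 and 7.64 in memory-derived stimulated cells, 7.35 and 6.96 in naive-derived unstimulated cells and 7.34, 7.18 and 7.66 in naive-derived stimulated cells. For both chains memory-derived unstimulated cells were lowest on every array, while the naive-derived unstimulated and memory-derived stimulated arrays overlapped. Slc3a2 rose by 1.68 (SE 0.22, 3.20-fold, adjusted p = 0.00045) and Slc7a5 by 1.57 (SE 0.27, 2.97-fold, adjusted p = 0.00173) on stimulation of memory-derived cells. The naive-derived excess without stimulation was 1.51 (SE 0.25, adjusted p = 0.00183) for Slc3a2 and 1.34 (SE 0.30, adjusted p = 0.00882) for Slc7a5.

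Slc7a11, the cystine-glutamate exchanger that pairs with the same heavy chain, measured 1.35, 1.31 and 1.38 in memory-derived unstimulated cells, all under the filter level, then 2.66, 2.62 and 2.72 in memory-derived stimulated cells, 1.91 and 1.81 in naive-derived unstimulated cells and 2.69, 2.23 and 2.55 in naive-derived stimulated cells. Its naive-derived unstimulated arrays were above all memory-derived unstimulated arrays and below both stimulated groups. Slc7a11 was at least 2.19-fold higher on stimulation of memory-derived cells (adjusted p = 0.000119) and at least 1.24-fold higher in naive-derived unstimulated cells (adjusted p = 0.0277). Both adjusted p values belong to the measured log2 differences, 1.32 and 0.51, and not to the bounds. The second difference did not pass without memory-derived unstimulated array 1 or 2 or without either naive-derived unstimulated array.

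The other transporters had rises of at most 1.07 on stimulation of memory-derived cells. Slc7a1, a carrier of arginine and lysine, rose by 1.07 (adjusted p = 0.0107) and was 1.05 higher in naive-derived unstimulated cells (adjusted p = 0.0248), but without memory-derived unstimulated array 3 these were 0.69 and 0.66, and the second did not pass with the experiment as a block. Slc6a9, a glycine transporter, rose by 1.04 (adjusted p = 0.000823) and was 0.89 higher (adjusted p = 0.00453), and Slc1a5, a carrier of glutamine and other neutral amino acids, rose by 0.90 (adjusted p = 0.00515) and was 1.07 higher (adjusted p = 0.00517). Slc38a1 and Slc38a2, sodium-coupled neutral amino acid transporters, rose by 0.61 (adjusted p = 0.0142) and 0.64 (adjusted p = 0.00659). Slc38a1 was 0.67 higher in naive-derived unstimulated cells (adjusted p = 0.0188), while Slc38a2, at 0.36, did not pass (adjusted p = 0.126). The rise of Slc38a1 did not pass without memory-derived unstimulated array 1 or memory-derived stimulated array 3.

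Of the 8 stress effectors and feedback genes, 7 rose on stimulation of memory-derived cells and 6 were higher in naive-derived unstimulated cells. Chac1, an enzyme that degrades glutathione, measured 3.29, 3.76 and 2.63 in memory-derived unstimulated cells, 6.03, 6.22 and 6.31 in memory-derived stimulated cells, 5.70 and 5.03 in naive-derived unstimulated cells and 6.11, 6.02 and 5.98 in naive-derived stimulated cells. The naive-derived unstimulated arrays lay between the memory-derived groups, and the stimulated groups overlapped. Chac1 rose by 2.96 (SE 0.26, 7.80-fold, adjusted p = 5.36e-05) and was 2.14 higher (SE 0.29, 4.41-fold, adjusted p = 0.000661) in naive-derived unstimulated cells.

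Trib3, a pseudokinase that restrains ATF4, measured 2.98, 3.12 and 2.78 in memory-derived unstimulated cells, 5.09, 5.64 and 5.82 in memory-derived stimulated cells, 4.84 and 4.15 in naive-derived unstimulated cells and 5.85, 5.10 and 5.61 in naive-derived stimulated cells. The naive-derived unstimulated arrays lay between the memory-derived groups, and the stimulated groups overlapped. Trib3 rose by 2.56 (SE 0.25, 5.90-fold, adjusted p = 0.000113) and was 1.53 higher (SE 0.28, 2.90-fold, adjusted p = 0.00328) in naive-derived unstimulated cells. Ppp1r15a, whose product GADD34 directs dephosphorylation of eIF2, measured 3.78, 3.88 and 3.64 in memory-derived unstimulated cells, 5.25, 5.48 and 5.43 in memory-derived stimulated cells, 5.50 and 5.05 in naive-derived unstimulated cells and 5.68, 5.68 and 5.96 in naive-derived stimulated cells. For this gene naive-derived cells without stimulation overlapped memory-derived cells with it. Ppp1r15a rose by 1.62 (SE 0.15, 3.08-fold, adjusted p = 8.13e-05) and was 1.51 higher (SE 0.17, 2.84-fold, adjusted p = 0.000328).

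Eif4ebp1, which holds back cap-dependent translation when unphosphorylated, had the smallest adjusted p of the 38 on stimulation of memory-derived cells. It measured 5.58, 5.51 and 5.65 in memory-derived unstimulated cells, 7.64, 7.83 and 7.77 in memory-derived stimulated cells, 7.13 and 6.85 in naive-derived unstimulated cells and 7.94, 7.68 and 7.86 in naive-derived stimulated cells. The naive-derived unstimulated arrays stood apart from every other group, and the stimulated groups overlapped. Eif4ebp1 rose by 2.17 (SE 0.13, 4.50-fold, adjusted p = 1.5e-05) and was 1.41 higher (SE 0.14, 2.66-fold, adjusted p = 0.000184) in naive-derived unstimulated cells. Sesn2, a leucine sensor that inhibits mTORC1, measured 3.85, 4.34 and 3.61 in memory-derived unstimulated cells, 5.47, 5.75 and 6.02 in memory-derived stimulated cells, 5.03 and 4.47 in naive-derived unstimulated cells and 5.29, 4.58 and 5.23 in naive-derived stimulated cells. The memory-derived stimulated arrays were the 3 highest, and the naive-derived groups overlapped. Sesn2 rose by 1.81 (SE 0.26, 3.51-fold, adjusted p = 0.000605) in memory-derived cells, and its 0.82 excess in naive-derived unstimulated cells did not pass (adjusted p = 0.0573).

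The kinase gene Eif2ak4 measured 3.17, 3.40 and 3.03 in memory-derived unstimulated cells, 3.52, 3.69 and 3.95 in memory-derived stimulated cells, 3.81 and 3.87 in naive-derived unstimulated cells and 3.68, 3.38 and 3.64 in naive-derived stimulated cells. The memory-derived unstimulated arrays spanned 3.03 to 3.40, and 1 naive-derived stimulated array fell within them. Eif2ak4 rose by 0.52 (adjusted p = 0.0235) and was 0.64 higher in naive-derived unstimulated cells (adjusted p = 0.0181). The first difference did not pass without memory-derived unstimulated array 1 or 3 (adjusted p = 0.0784 for array 3) or memory-derived stimulated array 2 or 3. A second probe set of Eif2ak4 had means of 1.75 before and 1.63 after stimulation of memory-derived cells. Stc2, a secreted glycoprotein induced by stress, rose by 1.20 (adjusted p = 0.000186) and was 0.69 higher (adjusted p = 0.0068). Vldlr, a lipoprotein receptor, was above the filter level on 2 arrays and did not pass, at -0.48 on stimulation of memory-derived cells (adjusted p = 0.0501).

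**Figure D2:**
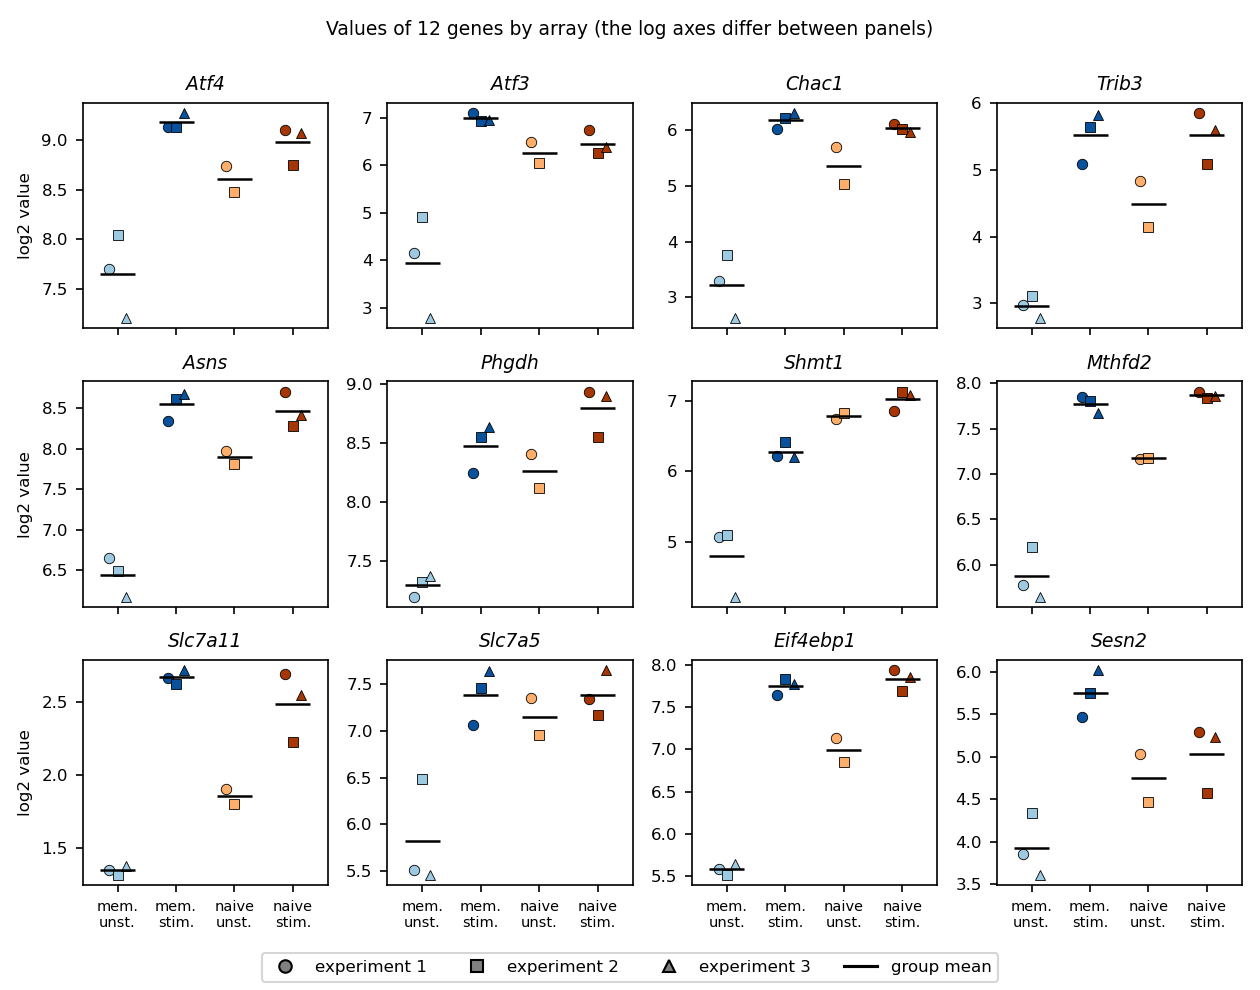
Normalised log2 signal of 12 genes, 1 to a panel with its own axis, by group, with points for arrays (shape gives the experiment) and a bar for each group mean. Memory-derived unstimulated arrays are the lowest for Atf4 (7.21 to 8.04), Asns (6.17 to 6.66) and Chac1 (2.63 to 3.76), and naive-derived unstimulated arrays are higher, at 8.47 and 8.74 for Atf4.

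On stimulation of naive-derived cells none of the 38 genes passed, and of all genes 0.0135% did (2 genes, both lower, with 0.0% higher). At an unadjusted p below 0.05, 19 of the 38 passed, against 8.46% of all genes. The values leaned upward: the median difference was 0.43, against 0.0072 over all genes, with a range from -0.44 to 1.15. All 3 stimulated arrays lay above both unstimulated arrays in 25 of the 38, against 13.6% of all genes. In 33 of the 38 the stimulated array was higher in both experiments that have a pair, against 31.7% of all genes. Cth had the largest difference, 1.15 (adjusted p = 0.117), followed by Trib3 with 1.03 (adjusted p = 0.343) and Eif4ebp1 with 0.84 (SE 0.14, adjusted p = 0.142). Atf4 differed by 0.37 (adjusted p = 0.705) and Atf3 by 0.19 (adjusted p = 0.95). Cbs, Slc38a1 and Eif2ak4 were lower after stimulation in both experiments, by amounts that did not pass. With a variance trend and robust fit, 2 genes passed, Cth and Eif4ebp1, against 0.0879% of all genes.

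After stimulation none of the 38 genes passed between naive-derived and memory-derived cells. Of all genes 3.7% did, with 1.69% higher and 2.01% lower in naive-derived cells, and 8 of the 38 passed at an unadjusted p below 0.05, against 16.3% of all genes. The median difference was 0.07 with a range from -0.71 (Sesn2, adjusted p = 0.184) to 0.75 (Shmt1, adjusted p = 0.0874), and it turned to -0.01 when arrays were scaled on the hybridization controls. All naive-derived stimulated arrays lay above all memory-derived stimulated arrays in 11 of the 38 and below them in 4, against 11.4% and 14.3% of all genes. The medians within experiments 1, 2 and 3 were 0.286, -0.163 and 0.048. Atf4 differed by -0.20 (adjusted p = 0.679), Asns by -0.08 (adjusted p = 0.865) and Chac1 by -0.15 (adjusted p = 0.832). Without memory-derived unstimulated array 3 the count was 3 (Psat1, Shmt1 and Cth), and without naive-derived stimulated array 2 it was 1 (Slc6a9). Of all genes 4.81% and 2.95% passed in these 2 fits. With 3 arrays a group, a p above the threshold does not show that the origins were alike.

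Naive-derived cells without stimulation were then set against memory-derived cells with it. Here 3 of the 38 genes were lower in the naive-derived unstimulated cells and none was higher, against 1.85% of all genes passing, 0.865% lower and 0.98% higher. Gpt2 differed by -0.90 (SE 0.16, adjusted p = 0.0179), Slc7a11 differed by -0.81 (SE 0.15, adjusted p = 0.0179) and Eif4ebp1 by -0.76 (SE 0.14, adjusted p = 0.0206). The median over the 38 was -0.25, against -0.022 over all genes, and in 20 of the 38 both naive-derived unstimulated arrays lay below all memory-derived stimulated arrays, against 19.9% of all genes. None of the 3 passed without memory-derived stimulated array 2 or 3 or without either naive-derived unstimulated array.

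The difference between the responses of the 2 origins was tested as an interaction, the naive-derived response minus the memory-derived response. It passed for 11 of the 38 genes, all with the smaller rise in naive-derived cells, against 2.71% of all genes passing and 1.09% in that direction. The median over the 38 was -0.79, against 0.020 over all genes. Atf3 had the largest, -2.86 (SE 0.61, adjusted p = 0.0417), then Chac1, -2.29 (SE 0.39, adjusted p = 0.0242), and Slc1a4, -1.57 (SE 0.29, adjusted p = 0.0285). The others were Asns, Cebpb, Eif4ebp1, Mthfd2, Aldh18a1, Ppp1r15a, Gpt2 and Got1, from -1.54 to -1.04. All 4 genes for asparagine, proline and aminotransferases were among the 11, and none of the serine synthesis or transsulfuration genes was. The interaction uses the same memory-derived unstimulated arrays as the stimulation and origin comparisons above, so a low level on those arrays enters all 3. Atf4, at -1.16, did not pass (adjusted p = 0.0607). With the experiment as a block 1 gene passed, Eif4ebp1, against 0.176% of all genes. Leaving out single arrays changed the count by over 1.5 times for every array but memory-derived unstimulated array 3, and the calls over all genes moved as well.

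**Figure D3:**
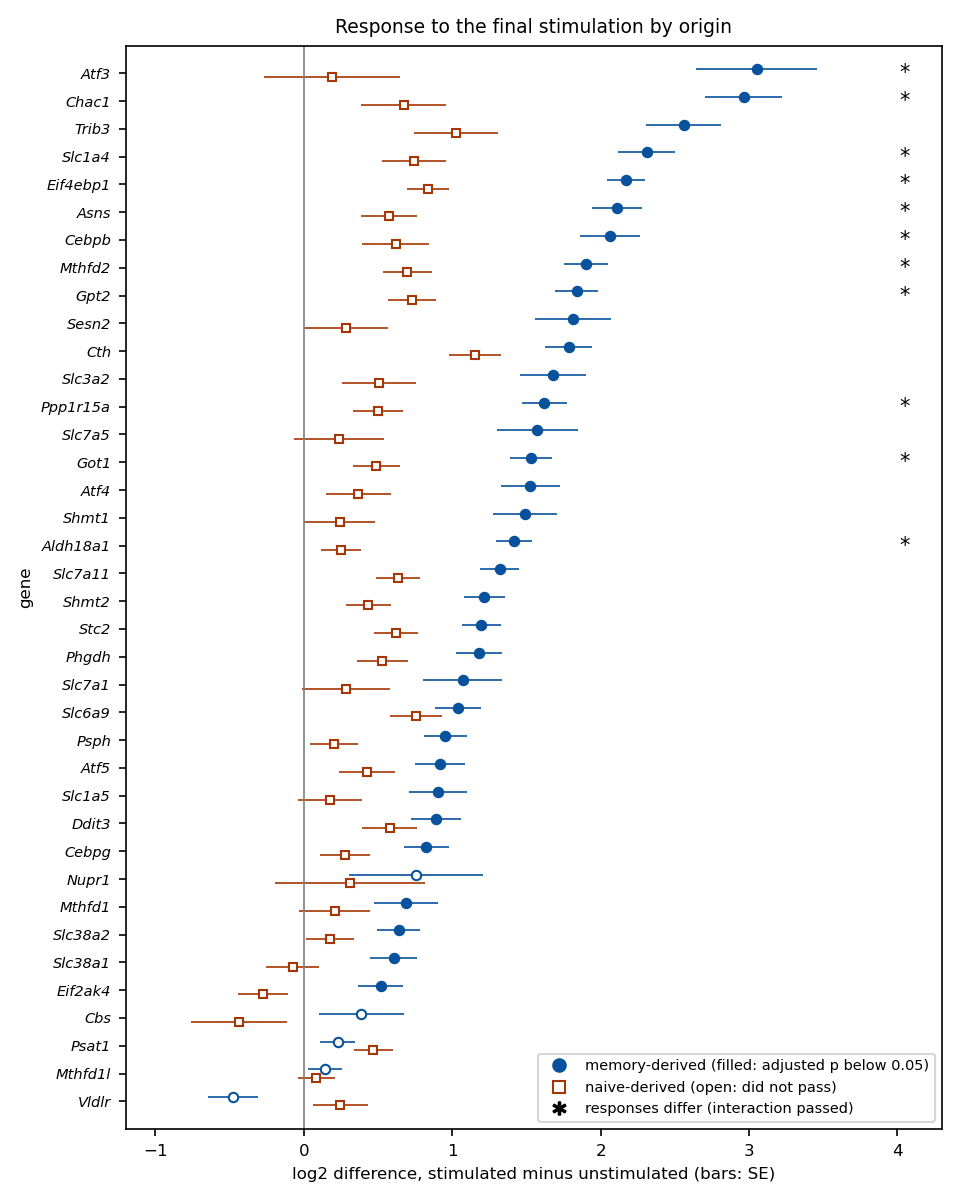
Log2 difference on stimulation (horizontal axis, with standard errors as bars) for each of the 38 genes (vertical axis), with circles for memory-derived and squares for naive-derived cells, filled where the adjusted p was below 0.05. Atf3 lies at 3.05 in memory-derived and 0.19 in naive-derived cells, Chac1 at 2.96 and 0.67, and an asterisk marks the 11 genes whose interaction passed.

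Another 72 genes around this pathway and listed by function moved in both directions: 21 rose (29.2%) and 12 fell (16.7%) on stimulation of memory-derived cells, against 14.3% and 17.3% of all genes. Among 17 genes of amino acid sensing and mTORC1, 3 rose and 6 fell, and among 16 genes of folate and methionine metabolism 8 rose and 3 fell. Of 9 genes of eIF2 and its kinases 3 rose and 1 fell. Of 14 genes of glutamine, glutamate and glutathione metabolism 3 rose and 2 fell, of 11 genes of branched-chain amino acid metabolism and further transporters 2 rose (Bcat1 and Slc7a6), and of 5 regulators 2 rose (Myc and Max). In naive-derived unstimulated cells 13 of the 72 were higher (18.1%) and 11 lower (15.3%) than in memory-derived unstimulated cells, against 10.9% and 14.9% of all genes, so the shares that were lower lay near those of all genes in both comparisons. On stimulation of naive-derived cells none passed. The 33 on stimulation of memory-derived cells became 21 without memory-derived stimulated array 1 and 20 without array 2. Without memory-derived unstimulated array 3 they became 21. Of all genes 24.8%, 23.6% and 24.4% passed in these 3 fits, in place of 31.6%. The 24 for origin fell, as the calls over all genes did, without either naive-derived unstimulated array, which leaves 1 array in that group.

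The largest rise was that of Bcat1, the cytosolic branched-chain aminotransferase, which measured 4.61, 4.97 and 3.15 in memory-derived unstimulated cells, 7.10, 7.33 and 7.09 in memory-derived stimulated cells, 7.06 and 6.94 in naive-derived unstimulated cells and 7.43, 7.41 and 7.43 in naive-derived stimulated cells. It rose by 2.93 (SE 0.35, adjusted p = 0.000285; 2.39 without memory-derived unstimulated array 3) and was 2.76 higher in naive-derived unstimulated cells (SE 0.40, adjusted p = 0.000962). Slc19a1, the reduced folate carrier, rose by 1.42 (SE 0.24, adjusted p = 0.00157) and was 1.66 higher (SE 0.27, adjusted p = 0.00172), and Eif2b3, a subunit of the exchange factor that phosphorylated eIF2 blocks, rose by 1.53 (SE 0.30, adjusted p = 0.00318; 1.10 without that array). Myc, which drives growth and amino acid uptake in activated T cells, measured 8.25, 8.70 and 6.54 in memory-derived unstimulated cells and 9.50 and 9.34 in naive-derived unstimulated cells, a difference of 1.59 (SE 0.48, adjusted p = 0.032) that became 0.94 without array 3 and did not pass without either naive-derived array or with the experiment as a block.

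The 3 largest falls were in Sesn3, Eif2ak3 and Ddit4. Sesn3, a sestrin like Sesn2, measured 5.70, 5.73 and 6.32 in memory-derived unstimulated cells, 4.24, 4.22 and 4.33 in memory-derived stimulated cells, 3.72 and 3.41 in naive-derived unstimulated cells and 3.54, 3.26 and 3.32 in naive-derived stimulated cells. It was highest in the group where Sesn2 was lowest. Sesn3 differed by -1.66 (SE 0.18, adjusted p = 0.000163) on stimulation of memory-derived cells and by -2.35 (SE 0.20, adjusted p = 7.8e-05) in naive-derived unstimulated cells. Eif2ak3, which encodes the eIF2 kinase PERK of the endoplasmic reticulum, measured 5.28, 5.46 and 6.36 in memory-derived unstimulated cells, 4.12, 4.33 and 4.35 in memory-derived stimulated cells, 3.66 and 3.91 in naive-derived unstimulated cells and 3.19, 3.71 and 3.53 in naive-derived stimulated cells. It differed by -1.44 (SE 0.25, adjusted p = 0.0018) and -1.92 (SE 0.28, adjusted p = 0.00107) in these comparisons, opposite in sign to Eif2ak4. The other eIF2 kinase genes did not pass on stimulation of memory-derived cells, with 0.18 for Eif2ak1 (adjusted p = 0.246) and -0.38 for Eif2ak2 (adjusted p = 0.142). Ddit4, a stress-induced inhibitor of mTORC1 also known as an ATF4 target, measured 6.39, 6.30 and 6.80 in memory-derived unstimulated cells, 5.52, 5.41 and 5.26 in memory-derived stimulated cells, 4.80 and 4.36 in naive-derived unstimulated cells and 5.24, 4.74 and 4.73 in naive-derived stimulated cells. It differed by -1.10 (SE 0.19, adjusted p = 0.00179) and -1.91 (SE 0.21, adjusted p = 0.000328), so the memory-derived unstimulated arrays that were lowest for most of the 38 were highest for Sesn3, Eif2ak3 and Ddit4. The interaction passed for 4 of the 72, 2 in each direction (2.78% each, against 1.62% of all genes higher and 1.09% lower): Sesn3 (1.47, adjusted p = 0.0268), Ddit4 (1.42, adjusted p = 0.0367), Rragd (-1.08, adjusted p = 0.0244), a Rag GTPase gene, and Bcat1 (-2.51, adjusted p = 0.0411). With the experiment as a block none of the 4 passed (adjusted p between 0.0634 and 0.075), and leaving out single arrays gave 0 to 12 passing genes of the 72, with over 1.5 times change for every array but memory-derived unstimulated array 3 and naive-derived stimulated array 3.

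**Figure D4:**
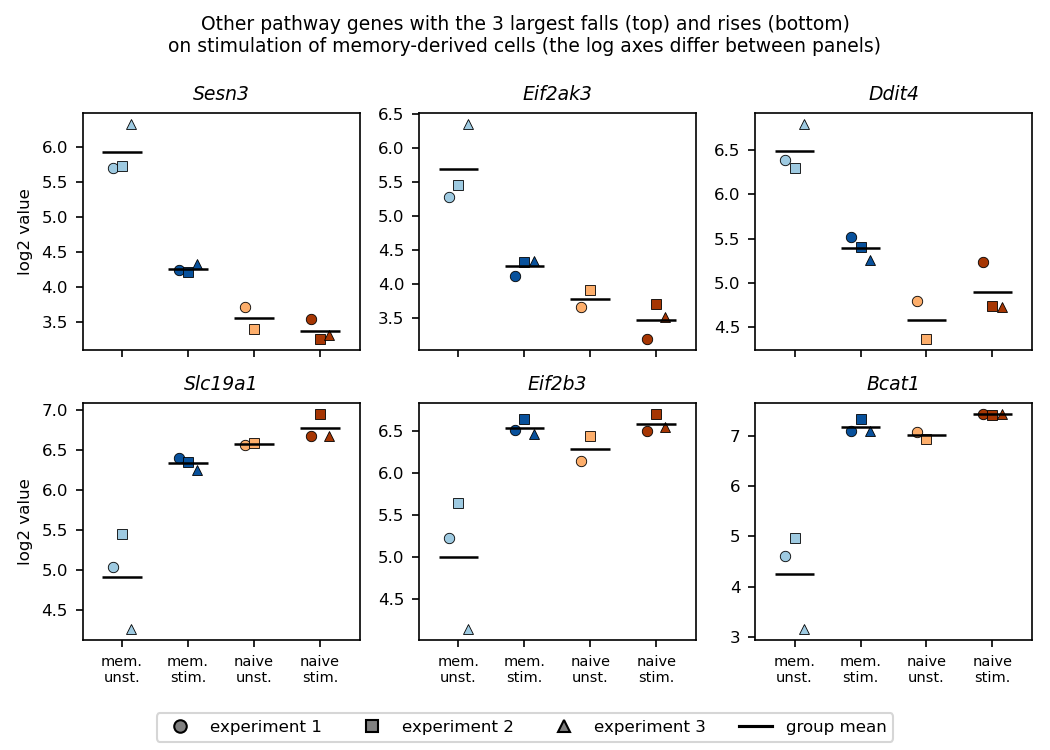
Normalised log2 signal of the 6 related genes with the largest falls and rises on stimulation of memory-derived cells, by group, with points for arrays and a bar for each group mean. Sesn3, Eif2ak3 and Ddit4 are highest in memory-derived unstimulated cells (Sesn3 5.70 to 6.32), and Bcat1 is lowest there (3.15 to 4.97).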

How the data were processed

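RNA of the 11 cultures was hybridised to Affymetrix mouse arrays. The authors' deposited values, taken as log10, had the same sorted values on all 11 arrays, as quantile normalization gives. The base is not given in the sources used here and was inferred from the hybridization controls, whose mean deposited value was 1.38 for the weakest and 3.65 for the strongest spike, so fold changes rest on it. Affymetrix Expression Console appears in the submitters' processing notes. Values were multiplied by 3.32 to give log2. A gene was its single-symbol probe set with the highest mean; of 45101 probe sets 34945 had 1 symbol in the platform annotation, 932 several and 9160 none listed. Genes above the 40th percentile of the array (1.54) on at least 2 arrays were tested. A fit of 4 group means with limma 3.58.1 (R 4.3.3, moderated with 7 residual and 3.86 prior degrees of freedom, tested on simulated data) gave 6 contrasts, two-sided, with Benjamini-Hochberg adjustment over 14795 genes. Arrays have no read depth, and their number limits precision. A bound replaces a fold where a group lay below the filter, and the adjusted p beside it is that of the measured difference.

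Members and lists were chosen with earlier results of these data known. Values on every array are given for the 20 passing members with the largest differences and for Atf4, Eif2ak4, Chac1, Trib3 and Slc7a11 (Phgdh was added as the first serine enzyme after its values were seen); related genes by the 3 largest rises and falls, with the interaction calls. The experiment number pairs arrays by the labels. Deviations of arrays of the same experiment correlated between -0.072 and 0.112 (median 0.034), and those of the same experiment and origin between 0.047 and 0.112 (median 0.094). Deviations of arrays of different experiments correlated between -0.131 and 0.112 (median -0.0036). The fit with the experiment as a block was an alternative. Another took origin and experiment as a random block (consensus correlation 0.122), and there 6.02% of all genes passed for the interaction, in place of 2.71%.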

Additional observations from a re-analysis of the deposited data

Results flagged for a closer look

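By the interaction of origin and stimulation (naive-derived minus memory-derived response, log2), 11 genes passed in the fit without a block. With the experiment as a replicate block 1 of them passed (Eif4ebp1), and with experiments 1 and 2 only, 0 passed. Of all genes 0.176% and 0.362% passed in these 2 fits, in place of 2.71%. The values were -2.86 for Atf3, -2.29 for Chac1, -1.57 for Slc1a4, -1.54 for Asns, -1.45 for Cebpb, -1.33 for Eif4ebp1, -1.20 for Mthfd2, -1.17 for Aldh18a1, -1.12 for Ppp1r15a, -1.11 for Gpt2 and -1.04 for Got1, with adjusted p from limma between 0.017 and 0.0417. For all 11 the memory-derived unstimulated mean was the lowest of the 4 groups. The actin 3′ minus 5′ difference was lowest in that group as well (0.875 to 1.17), and its part was not tested. With 2 or 3 arrays a group, no search for single outlying arrays was made.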

How the results depend on the processing

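Over 6 comparisons and 19 alternatives, 0 of 4290 single-gene values turned against a call, 174 lost a call and 69 gained one. Only a gene that passed in the main fit could turn against or lose a call, so many of the 4290 values could do neither. The interaction, where 11 of the 38 genes passed in the main fit, held 107 of the 174 lost calls. For stimulation of memory-derived cells the count of 33 passing genes stayed between 28 and 34, and for origin in unstimulated cells the count of 28 was 22 to 31, apart from leaving out single arrays, which gave 18 to 29. Over the same alternatives, 19.7% to 48.4% of all genes tested passed for stimulation of memory-derived cells. For origin in unstimulated cells the share was 16.3% to 42.6% where no single array was left out. It was 21.2% to 28.3% where leaving out an array kept at least 2 in every group. This share fell further without either naive-derived unstimulated array, which leaves 1 array in that group. The other counts moved more. With the variance trend and robust prior, 2 genes passed for stimulation of naive-derived cells, 4 for origin in stimulated cells and 20 for the interaction. Of all genes 0.0879%, 4.74% and 7.57% passed there, in place of 0.0135%, 3.7% and 2.71%. With the 60th percentile filter, 3 passed for origin in stimulated cells and 20 for the interaction, against 7.23% and 10.3% of all genes tested. With no filter the interaction count fell to 7, against 0.956% of all genes. With the experiment as a replicate block, 1 gene passed for the interaction, in place of 11 (26 of all genes, in place of 401), and the block moved no other count by over 1.5 times. For naive-derived unstimulated against memory-derived stimulated cells, 1 gene passed with hybridization control scaling and 1 with the mean of all probe sets, in place of 3. Of all genes 1.33% and 2.13% passed there, in place of 1.85%. With experiments 1 and 2 only, 0 passed for that comparison and 0 for the interaction, against 1.71% and 0.362% of all genes. Leaving out single arrays gave 0 to 3 for origin in stimulated cells, 0 to 4 for naive-derived unstimulated against memory-derived stimulated cells, and 0 to 20 for the interaction. The shares of all genes that passed moved with these settings as well. Where leaving out an array kept at least 2 in every group, they were 1.96% to 4.81%, 1.05% to 2.63% and 0.13% to 10.3% in this order. The causes were not tested. With 2 arrays of naive-derived unstimulated cells, every contrast that uses them rests on the pooled spread.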

Other observations

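Of the 33 genes with a promoter entry, 7 of the 9 with TGATGNAA rose on stimulation of memory-derived cells, with a median difference of 2.11 over the 9, and 21 of the 24 without it rose, with a median of 1.13 over the 24. The 9 were found by the sequence within a list of ATF4 response genes, and the difference between the 2 sets was not tested.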
